A study of Mus musculus with 2 samples.

Results

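Histone genes were described in RNA sequencing of sorted mouse bone marrow cells. Members were the rows of the deposited expression table that name 1 gene whose symbol starts with Hist1h, Hist2h, Hist3h, Hist4h, H2af, H3f3 or H1f. This gave 86 of 35798 rows. The 67 rows with Hist symbols were taken as replication-dependent histones and the 19 rows with H2af, H3f3 or H1f symbols as variant histones. The choice used symbols only, and 5 of the 86 symbols are those of pseudogenes.

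The cells were sorted from bone marrow of adult C57BL/6 mice as negative for CD45, CD31 and Ter119 and positive for green fluorescent protein from a Nes-gfp transgene, a reporter of nestin-expressing stromal cells. Control cells were those of Nes-gfp littermates, and the other library, called the mutant pool here and JAK2 V617F in the plots, came from Nes-gfp;Mx1-cre;JAK2-V617F mice. The mutant pool was taken 6 weeks after induction with pIpC, the interferon inducer that switches on Mx1-cre, and control mice also received pIpC. Each library pooled cells of 3 animals. With 1 library per group there was no replicate check, no error between libraries could be given and no test of the groups was made. Neither Mx1-cre nor JAK2-V617F is listed for the control mice, so the effect of Cre and of the mutation cannot be told apart. Mx1-cre is active in blood cells and in other tissues, and the labels do not say which of the sorted cells carried the recombined allele.

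Nucleosomes, the repeating units of chromatin, wrap DNA around a core of histones H2A, H2B, H3 and H4, and histone H1 binds the linker DNA. Replication-dependent histones are encoded by clustered genes without introns that are transcribed mainly in S phase. Their mRNAs end in a conserved stem-loop, bound by the stem-loop binding protein SLBP, in place of a poly(A) tail. Variant histones such as H2A.Z and H3.3 come from single genes with introns and polyadenylated mRNAs, are made throughout the cell cycle, and are placed into chromatin by their own chaperones.

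A search of annotated GENCODE vM21 transcripts (GRCm38) found the stem-loop in 42 of the 67 replication-dependent genes and in 1 of the 16 variant genes with a transcript. The form searched was a stem of 6 base pairs, with at most 1 G-T pair, around a loop of 4 bases written TNTN. The first strand of the stem had to read GGYYYN, with Y for C or T and N for any base. The second strand had to end in CC. The sequences below, 5′ to 3′, show the stem-loop in capitals with 5 bases on each side, for the highest genes of H4, H2B and H1, for Hist1h2bb, and for the single variant with one.
Hist1h4d: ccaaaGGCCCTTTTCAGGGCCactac
Hist1h2bm: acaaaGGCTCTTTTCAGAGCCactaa
Hist1h1e: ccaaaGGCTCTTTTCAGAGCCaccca
Hist1h2bb: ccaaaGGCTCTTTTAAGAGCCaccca
H2afx: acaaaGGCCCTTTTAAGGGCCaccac
The form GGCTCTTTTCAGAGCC stood in 22 genes of H1, H2A, H2B and H3. A further 7 genes, each of H4, had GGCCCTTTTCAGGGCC, and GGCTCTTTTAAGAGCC stood in 6 genes, none of H4. H2afx encodes H2A.X, the variant that is phosphorylated around DNA breaks. A gene without a match may lack the end of its transcript in the annotation. Whole transcripts were searched, and a match need not lie at the annotated end. In Hist1h4d, Hist1h1e and H2afx, 770, 1153 and 822 annotated bases follow the stem-loop. A poly(A) signal stood in the last 60 bases of 15 of the 67 replication-dependent transcripts. Of the replication-dependent stem-loops on a transcript with 1 exon, 36 lay inside the locus that the deposited table gives for the gene. Another 5 lay outside it, those of Hist1h2bm and Hist1h2bb among them. Measured genes with a stem-loop in the transcript (38) had a median of 13.5 FPKM in the control pool and 10.7 in the mutant pool. For measured genes without one (17) the medians were 11.5 and 8.49 FPKM.

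Promoters were read from RefSeq (GRCm38.p6) as windows of 300 bases, from 250 before to 50 after the start, for 59 replication-dependent and 15 variant genes. The windows of 3 highly expressed genes are shown, since they differ in the motifs they hold. Capitals mark matches on either strand. They mark the TATA box as TATAAA and the CCAAT box, read as ATTGG from the other strand. The octamer was searched as ATTTGCAT. The H1 box was searched as AAACACA.
Hist1h4d, chr13:23581318-23581617, plus strand: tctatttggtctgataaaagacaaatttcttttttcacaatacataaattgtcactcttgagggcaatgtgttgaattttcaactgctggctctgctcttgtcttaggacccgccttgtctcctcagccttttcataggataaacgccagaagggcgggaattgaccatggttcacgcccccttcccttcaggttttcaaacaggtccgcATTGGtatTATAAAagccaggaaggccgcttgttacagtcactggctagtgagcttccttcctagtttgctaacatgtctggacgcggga
Hist1h2bm, chr13:21721794-21722093, plus strand: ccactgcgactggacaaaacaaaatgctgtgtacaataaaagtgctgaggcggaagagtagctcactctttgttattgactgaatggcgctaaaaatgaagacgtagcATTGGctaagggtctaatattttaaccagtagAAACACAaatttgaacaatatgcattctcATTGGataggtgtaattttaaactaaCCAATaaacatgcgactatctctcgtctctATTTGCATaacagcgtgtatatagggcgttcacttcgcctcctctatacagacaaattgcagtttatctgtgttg
Hist1h1e, chr13:23622509-23622808, minus strand: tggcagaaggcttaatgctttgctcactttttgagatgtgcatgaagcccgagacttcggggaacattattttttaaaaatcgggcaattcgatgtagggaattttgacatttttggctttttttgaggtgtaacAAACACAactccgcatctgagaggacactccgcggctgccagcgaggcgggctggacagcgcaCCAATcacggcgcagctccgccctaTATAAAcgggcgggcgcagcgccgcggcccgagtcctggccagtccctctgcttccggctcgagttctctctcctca
TATAAA stood in 57.6% of the replication-dependent windows, in 6.67% of the variant windows and in 14.2% of all 27025 windows of the same length. CCAAT stood in 84.7% of the replication-dependent windows, in 9 of the 15 variant windows and in 37.9% of all windows. All windows of replication-dependent H1, H2A, H2B and H3 genes held CCAAT, but only 3 of 12 windows of H4 genes. Among replication-dependent genes, the octamer was found in 6 of 16 H2A and 6 of 16 H2B windows and in no window of the other classes, against 1.75% of all windows. The H1 box stood in 5 of 6 windows of replication-dependent H1 genes and in 7.14% of all windows. Windows of divergent H2A and H2B neighbours overlap, so their counts are not independent. These matches describe letters in the window and not factor binding.

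Expression is given as FPKM, a fragment count divided by transcript length and by the mapped fragments of the library, as deposited by the authors. The table's FPKM values summed to 924587 in the control pool and 817478 in the mutant pool, a ratio of 0.884. Steps in the low values of 5601 genes with a single transcript put the depth at about 5563080 and 6448270 fragments. By FPKM the histone rows made up 0.736% of the control pool and 0.696% of the mutant pool. The 67 replication-dependent rows summed to 4227 FPKM in the control pool and 3320 in the mutant pool, a ratio of 0.785. The 19 variant rows summed to 2581 and 2371 FPKM, a ratio of 0.919 that turned to 1.04 when both libraries were scaled to the same sum and to 1.01 when globin, ribosomal protein, small RNA and histone rows were left out of that sum. Under these 2 scalings the ratio of the replication-dependent sum was 0.888 and 0.862, still below 1. In such pools, fewer cells of a histone-producing type and less histone RNA per cell cannot be told apart.

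**Figure D1:**
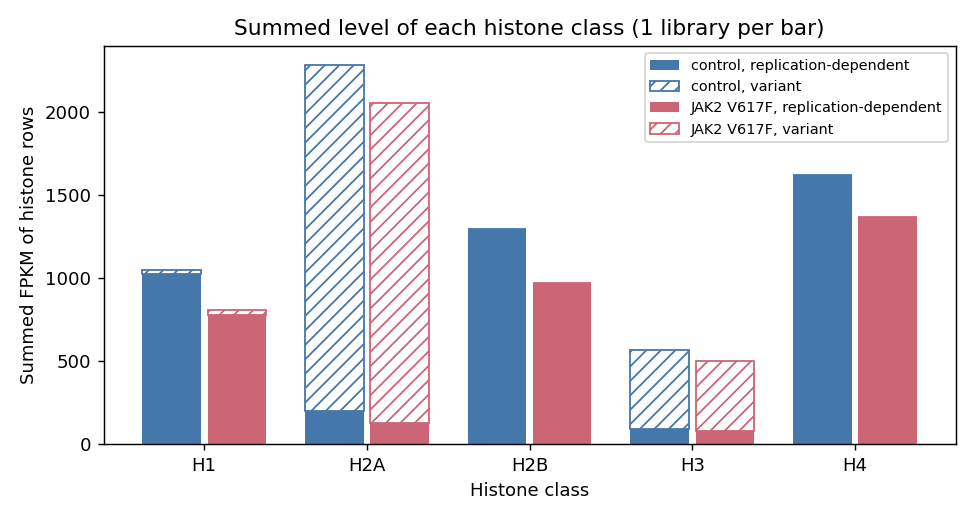
Summed FPKM of the histone rows of each class in the control pool (blue) and mutant pool (red), with replication-dependent genes as solid bars and variants hatched; each bar is 1 library and has no error bar. The solid bars of H1, H2B and H4 stand far above those of H2A (197 and 130 FPKM) and H3 (92.3 and 78.2 FPKM), where variants make up most of the bar.

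The classes of replication-dependent histones differed widely in summed level. H4 rows summed to 1622 FPKM in the control pool and 1365 in the mutant pool, and H2B rows to 1291 and 969 FPKM. H1 rows summed to 1024 and 778 FPKM. H2A rows reached only 197 and 130 FPKM, and H3 rows 92.3 and 78.2 FPKM. The ratios of these sums were 0.841 for H4, 0.750 for H2B, 0.759 for H1, 0.661 for H2A and 0.847 for H3. All 5 ratios stayed below 1 when the libraries were scaled to the same sum, where they ran from 0.747 for H2A to 0.958 for H3. A nucleosome holds equal numbers of the 4 core histones, but the summed FPKM of the classes was not equal in either library. Near-identical copies bear on these sums. Of the 50-base stretches of a replication-dependent transcript, a median of 49.3% also occurred in a gene elsewhere, with class medians of 73.2% for H2A, 60.4% for H3, 43.8% for H2B, 39.5% for H4 and 1.13% for H1. For variants the median was 6.41%, but H2afz, the variant with the highest FPKM, had 69.6%. How the authors' counting divided reads among such copies is not given in the sources used here. Levels of single H2A, H2B, H3 and H4 genes, that of H2afz included, are therefore uncertain. Across 55 measured genes, the shared percentage and the control FPKM had a Spearman's rho of −0.35. These genes come from 1 library and are not independent replicates.

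A few genes made up most of the replication-dependent signal. Hist1h4d, an H4 gene at chr13:23581598-23581990, was at 1443 FPKM in the control pool and 1224 in the mutant pool. Hist1h2bm, an H2B gene at chr13:21721442-21722478, was at 834 and 518 FPKM. Together they held 53.9% of the replication-dependent sum in the control pool and 52.5% in the mutant pool. With the linker histones Hist1h1e, Hist1h1b and Hist1h1a the share was 76.6% and 74.6%. The same 5 genes led both libraries. Without them the remaining rows summed to 989 and 844 FPKM, a ratio of 0.854 that was 0.966 at equal library sums.

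For each gene the difference between the libraries was computed as log2((mutant FPKM + 1)/(control FPKM + 1)), called the log2 ratio below, a scale that understates differences of low genes. A gene was counted as measured where either library reached 1 FPKM, and it was called where the libraries differed 2-fold on this scale. Of the 67 replication-dependent genes, 55 were measured and 7 were listed at 0 in both libraries. Of the 55, 5 (9.09%) were called higher in the mutant pool and 13 (23.6%) lower, and the median of their log2 ratios was −0.50. Of all 15118 measured single-gene rows, 13.8% were called higher and 11.4% lower, with a median of −0.03. These shares of all rows also stand beside the as-deposited counts of classes, clusters, variants and lists below. The log2 ratio was below 0 for 36 of the 55 genes and above 0 for 19. At equal library sums the median was −0.32 beside 0.14 for all rows, and the distance between the medians was −0.47 in both cases. At these sums 5 genes were called higher and 11 lower. Of all 15287 rows measured at equal sums, 16.7% were called higher and 9.42% lower. Those shares stand beside the counts at equal sums below. Among genes at 5 FPKM or more, 9.35% of all rows were called higher and 10.1% lower.

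**Figure D2:**
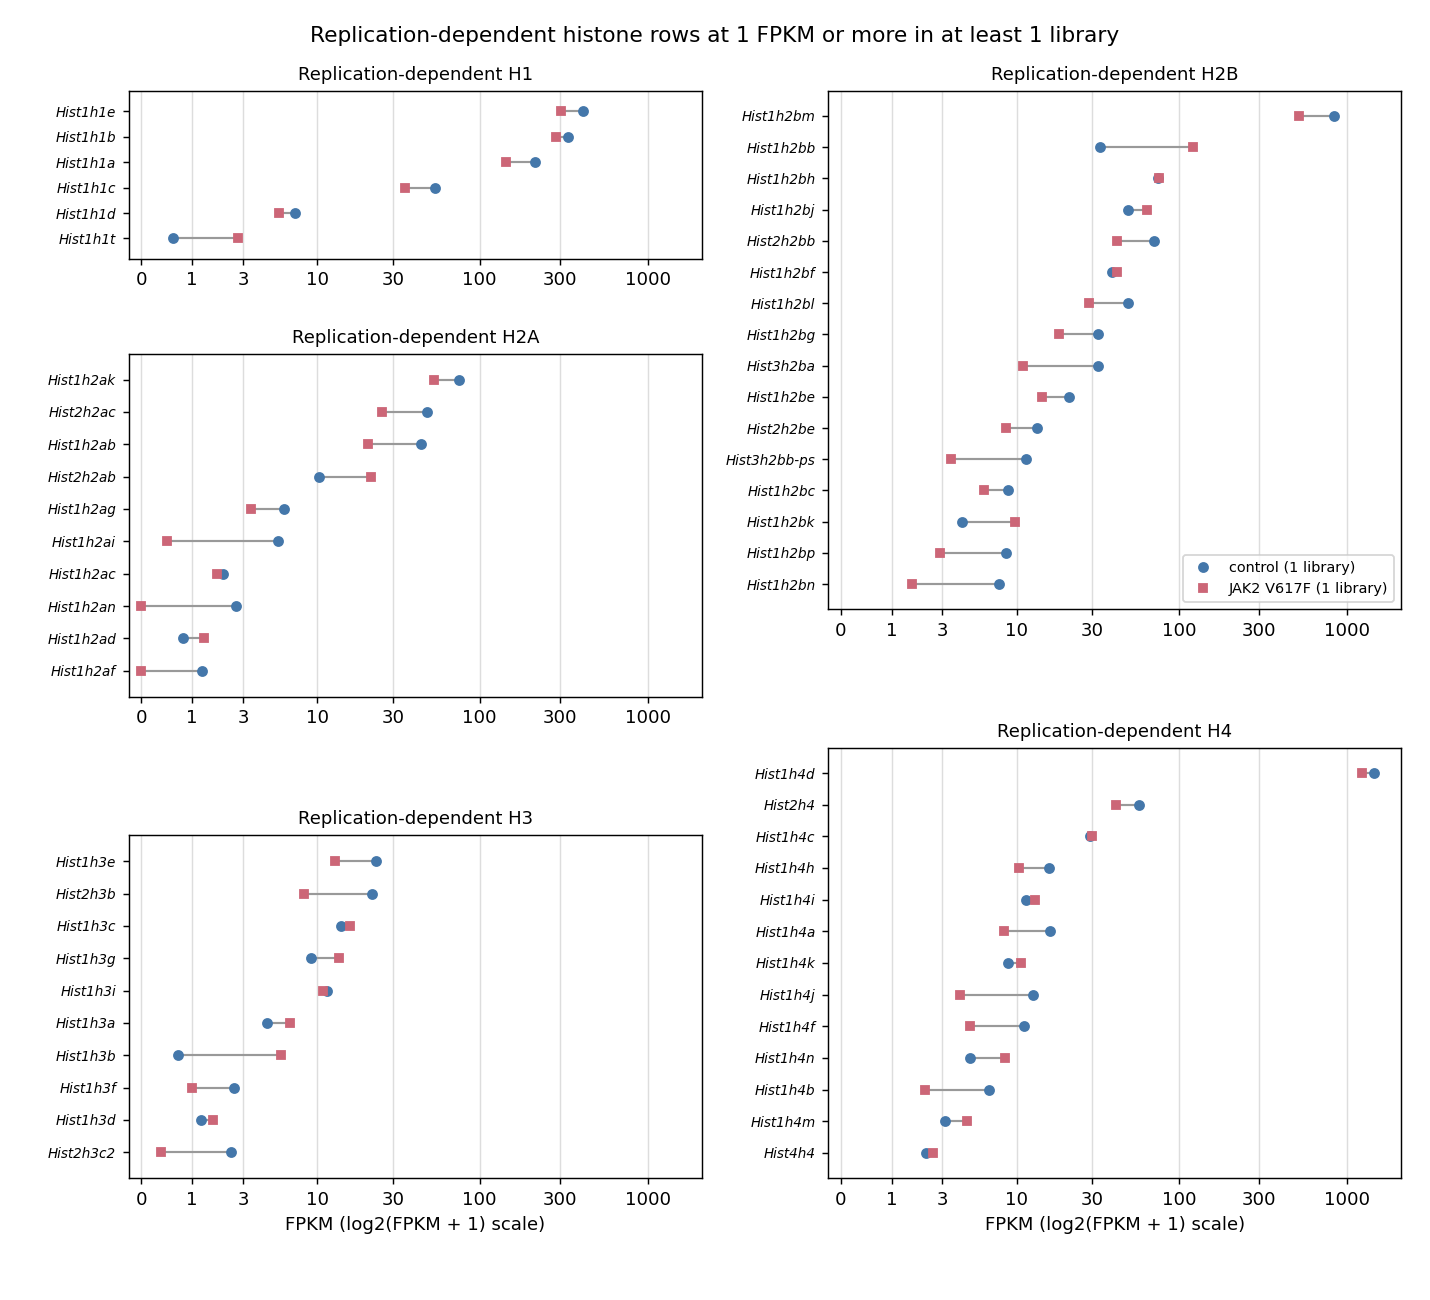
FPKM of the 55 measured replication-dependent histone genes, by class, on a log2(FPKM + 1) axis, in the control pool (blue circle) and mutant pool (red square); each point is 1 library. For 36 genes the square lies left of the circle, and the widest gaps to the right are those of Hist1h3b and Hist1h2bb.

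The calls fell mainly on genes with low values. Among 25 genes with a mean below 10 FPKM, 3 were called higher and 10 lower. Of 17 genes between 10 and 40 FPKM, 1 was called higher and 3 lower, and of 13 genes at 40 FPKM or more, 1 was called higher and none lower. Among all rows below 10 FPKM, 21.8% were called higher and 14.9% lower. Between 10 and 40 FPKM these were 299 and 397 of 4964 rows, and at 40 FPKM or more 6.28% and 8.11%. The medians of the 3 histone bands were −0.48, −0.62 and −0.44, beside 0.13, −0.08 and −0.14 for all rows of these levels.

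**Figure D3:**
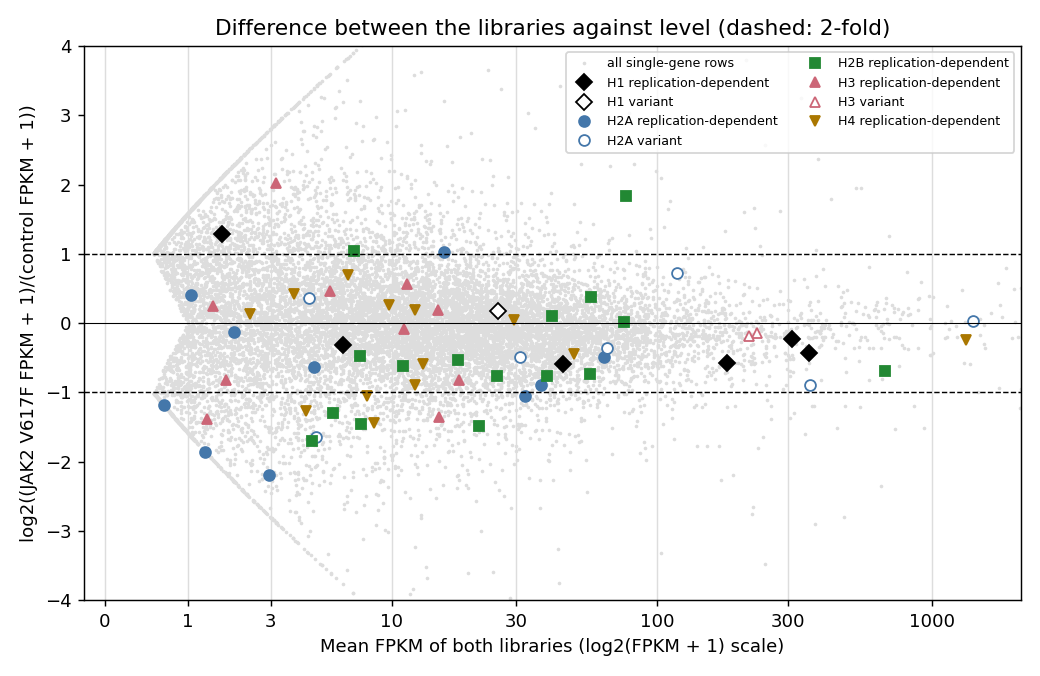
Log2 ratio of each gene against its mean FPKM in both libraries, with all measured single-gene rows in grey and histone genes by class (filled, replication-dependent; open, variant); dashed lines mark a 2-fold difference, and grey rows beyond 4 on the log2 scale are not drawn. Most histone genes with a mean of 40 FPKM or more lie between the dashed lines, slightly below 0, with Hist1h2bb as the filled point above them.

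H4 binds H3 to form the central tetramer of the nucleosome. All 13 H4 rows were measured, none was called higher and 3 were called lower, with a median log2 ratio of −0.24. Below Hist1h4d the next H4 gene was Hist2h4, at 57.1 FPKM in the control pool and 41.8 in the mutant pool. Hist1h4c was nearly level at 28.9 and 29.9 FPKM. Hist1h4h was at 16.2 and 10.4 FPKM. Hist1h4j stood at 12.8 FPKM in the control pool and 4.09 in the mutant pool, a log2 ratio of −1.44. For Hist1h4b, whose annotated locus overlaps another transcript, the values were 6.59 and 2.15 FPKM, a log2 ratio of −1.27. Hist1h4f had 11.1 and 4.81 FPKM, and its call was lost at equal library sums, where its log2 ratio was −0.91. The 3 lower genes were all under 13 FPKM, so together they were a small part of the H4 signal, of which Hist1h4d alone held 88.9% and 89.7%.

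H3, whose tail carries many of the best known histone marks, had 10 of 11 rows measured, with 1 called higher, 2 lower and a median of 0.05. Hist1h3e was at 23.7 FPKM in the control pool and 12.97 in the mutant pool. Hist1h3c and Hist1h3g ran the other way, at 14.2 and 16.2 FPKM and at 9.09 and 13.9 FPKM. Hist1h3b had the highest log2 ratio of the histone genes, with 0.648 FPKM in the control pool and 5.68 in the mutant pool, a log2 ratio of 2.02, from low values. Hist2h3b was at 22.4 and 8.16 FPKM, a log2 ratio of −1.35. It shares its locus in the table with the H2B gene Hist2h2bb, so the 2 rows cannot be fully told apart. Hist2h3c2 had 2.41 FPKM in the control pool and 0.303 in the mutant pool, low values again.

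H2A had 18 rows, of which 10 were measured and 5 were listed at 0 in both libraries. One was called higher and 4 lower, with a median of −0.76. Hist1h2ak was the highest at 74.9 FPKM in the control pool and 52.9 in the mutant pool. Hist2h2ac had 48.5 and 25.8 FPKM, a log2 ratio of −0.89. Hist1h2ab stood at 44.2 and 20.9 FPKM, and its log2 ratio of −1.05 became −0.88 at equal library sums. Hist2h2ab was the higher gene, at 10.2 and 21.8 FPKM, but its locus in the table spans 23721 bases and holds Bola1. Hist1h2ai was at 5.49 and 0.416 FPKM, a log2 ratio of −2.20, the lowest of the histone genes. Hist1h2an and Hist1h2af were at 2.63 and 1.27 FPKM in the control pool and had a listed value of 0 in the mutant pool, so no fold is given.

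H2B, the partner of H2A in the nucleosome's dimers, had 16 of 19 rows measured, with 2 called higher, 4 lower and a median of −0.65. Hist1h2bb ran against the class, at 33.1 FPKM in the control pool and 120.8 in the mutant pool, a log2 ratio of 1.84. It was the only replication-dependent gene with a mean of 40 FPKM or more that was called in either direction. Its neighbours on chromosome 13 did not share one direction, since Hist1h2ab was lower and Hist1h3b higher, while Hist1h3c was at 14.2 and 16.2 FPKM. Hist1h2bh was level at 74.7 and 75.7 FPKM, and Hist1h2bj was at 49.5 and 64.6 FPKM. Hist1h2bk was called higher at 4.24 and 9.83 FPKM. Among the lower genes, Hist3h2ba was at 32.6 and 10.98 FPKM, a log2 ratio of −1.49. The neighbouring pseudogene row Hist3h2bb-ps was also lower, at 11.5 and 3.52 FPKM. Hist1h2bn had 7.61 and 1.65 FPKM and Hist1h2bp 8.55 and 2.89 FPKM. Hist1h2bm shares the coordinates of its locus with the H2A gene Hist1h2aj, which was listed at 0 in both libraries. All of the signal of this locus stood in the H2B row.

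H2A and H2B genes often lie head to head and share the stretch between their starts. Of 14 divergent pairs of histone genes whose annotated starts lay within 1000 bases, 13 joined an H2A to an H2B gene, with a gap of 175 to 305 bases and a median of 250. The H2B gene was the higher of the pair in 8 of 13 pairs in the control pool and in 9 of 13 in the mutant pool. The pair added in the mutant pool, Hist1h2ap and Hist1h2br, was at 0 and 0.0827 FPKM there, below the 1 FPKM filter. Both genes of Hist1h2ao / Hist1h2bq and of Hist1h2aa / Hist1h2ba were also below that filter in both libraries. In the pair Hist1h2ae and Hist1h2bg the H2A gene was at 0.519 and 0.455 FPKM and the H2B gene at 32.3 and 18.7 FPKM. Hist1h2ad, at 0.763 and 1.34 FPKM, faced Hist1h2bf, at 39.3 and 42.2 FPKM. The order was turned in 2 pairs in both libraries. Hist1h2ak, at 74.9 and 52.9 FPKM, faced Hist1h2bn, at 7.61 and 1.65 FPKM, and Hist2h2ac, at 48.5 and 25.8 FPKM, faced Hist2h2be, at 13.6 and 8.49 FPKM. In 3 pairs the H2A row was at 0 in both libraries. The shared stretches of H2A transcripts given above bear on these low H2A values, and their part was not tested.

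**Figure D4:**
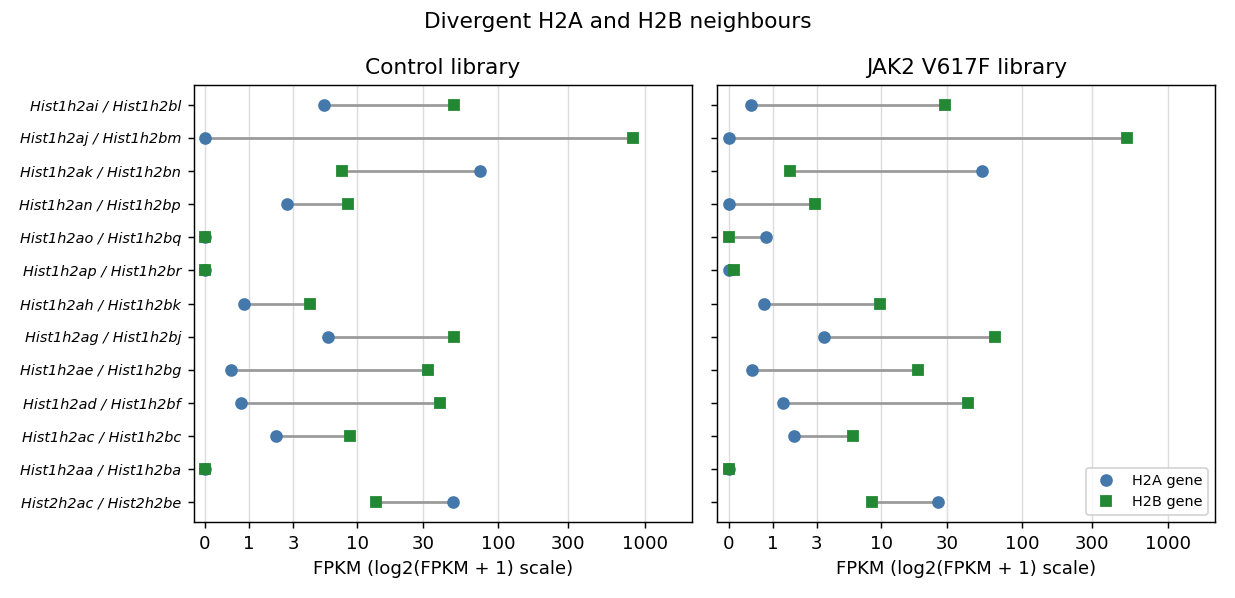
FPKM of the H2A (blue) and H2B (green) gene of 13 divergent pairs on a log2(FPKM + 1) axis, in the control pool on the left and the mutant pool on the right; a line joins each pair. The H2B gene lies to the right in 8 pairs in the control pool and in 9 in the mutant pool, with Hist1h2ak / Hist1h2bn and Hist2h2ac / Hist2h2be turned in both.

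Linker histones had 6 replication-dependent rows, all measured, with 1 called higher, none lower and a median of −0.38. Their transcripts share few stretches with other genes, so copies elsewhere bear less on their levels. Hist1h1e was at 412 FPKM in the control pool and 304 in the mutant pool, Hist1h1b at 335 and 285 FPKM, and Hist1h1a at 215 and 144 FPKM. Hist1h1c was lower by the widest margin on the log2 scale, −0.60, at 54.2 and 35.4 FPKM. Hist1h1d was at 7.13 and 5.52 FPKM. These 5 genes had a log2 ratio below 0 as deposited and at equal library sums alike. Hist1h1t, the testis linker histone, was called higher at 0.536 and 2.76 FPKM. It was the only measured row among 7 rows of germline histones. The other 6 were at 0 in both libraries, among them the testis genes Hist1h2aa and Hist1h2ba and the oocyte linker histone H1foo.

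Most of these genes lie in 3 clusters. The part of the Hist1 cluster of chromosome 13 that runs from Hist1h2bl to Hist1h2br had 13 measured rows, none called higher and 5 lower, with a median of −0.69. The short stretch from Hist1h2ah to Hist1h2bj had 4 measured rows, 1 called higher, none lower and a median of 0.28. In the stretch from Hist1h4h to Hist1h2aa, 28 rows were measured, with 3 called higher, 4 lower and a median of −0.38. The Hist2 cluster of chromosome 3 had 7 measured rows, 1 called higher and 2 lower, with a median of −0.73. Both rows of the Hist3 cluster of chromosome 11 were called lower. These stretches hold few genes, and no difference between them was tested. Of all measured single-gene rows, 13.8% were called higher and 11.4% lower.

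Fragment counts could be estimated for 27 histone rows with the same single transcript in the table and in GENCODE vM21. The 8 lowest values of these rows centred on 1.59 estimated fragments rather than 1, so the estimates were divided by 1.59, a step chosen after seeing the data. Exact (Clopper-Pearson) 95% intervals of the ratio, mutant to control, were computed for the 19 of them that were measured and listed above 0 in both libraries. They cover counting error only. The RNA was amplified and no molecular identifiers are mentioned, so fragments may not be independent counts and the intervals may be too narrow. Reads shared among copies may also have been divided, so the estimates need not be whole counts. With no correction for their number, the intervals left out 1 for 6 genes. Hist1h1b had a ratio of 0.853 with an interval of 0.766 to 0.952. The ratio of Hist2h2ac was 0.531 (0.338 to 0.810), that of Hist1h3e 0.548 (0.349 to 0.854) and that of Hist1h2bg 0.577 (0.361 to 0.905). Hist3h2bb-ps, on about 12 and 4 fragments, had 0.308 (0.0676 to 0.949). Hist1h3b, on about 1 and 10 fragments, was the one gene above, at 8.76 with an interval of 1.23 to 374. At 0.648 FPKM in the control pool, it was measured only through its value in the mutant pool. Its interval is therefore no support for a difference. At equal library sums 2 of these rows, Hist2h2ac and Hist1h3e, kept an interval below 1, and 2, Hist1h3b and Hist1h2bj, had one above 1. Other genes called lower from few fragments had intervals that held 1, such as Hist1h2bn, with 0.00313 to 1.19, and Hist1h4f, with 0.0863 to 1.37.

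Variant histones had 10 of 19 rows measured, with none called higher, 1 called lower and a median of −0.16, which turned to 0.01 at equal library sums. H2afz, which encodes H2A.Z.1, a variant found at the promoters of many genes, was the highest of them at 1404 FPKM in the control pool and 1430 in the mutant pool. H2afv, the gene of H2A.Z.2, was at 73.7 and 57.5 FPKM. H2afx was at 469 FPKM in the control pool and 253 in the mutant pool, a log2 ratio of −0.89, or −0.71 at equal sums. Of the measured variants, only H2afy2, without a stem-loop match, had a lower log2 ratio (−1.65) than H2afx, the one with a stem-loop. Any part of the stem-loop in this was not tested. H2afy, the gene of macroH2A1, a variant with a large extra domain that is linked to silent chromatin, ran the other way at 88.7 and 147 FPKM, a log2 ratio of 0.72. Its relative H2afy2, the gene of macroH2A2, was the called gene at 7.84 and 1.82 FPKM, a log2 ratio of −1.65. The H2afy2 locus of the table also holds Aifm2. H2afj was at 36.6 and 25.8 FPKM. H2afy3 was at 3.82 and 5.17 FPKM, in a locus of 340110 bases that also holds Pvt1.

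**Figure D5:**
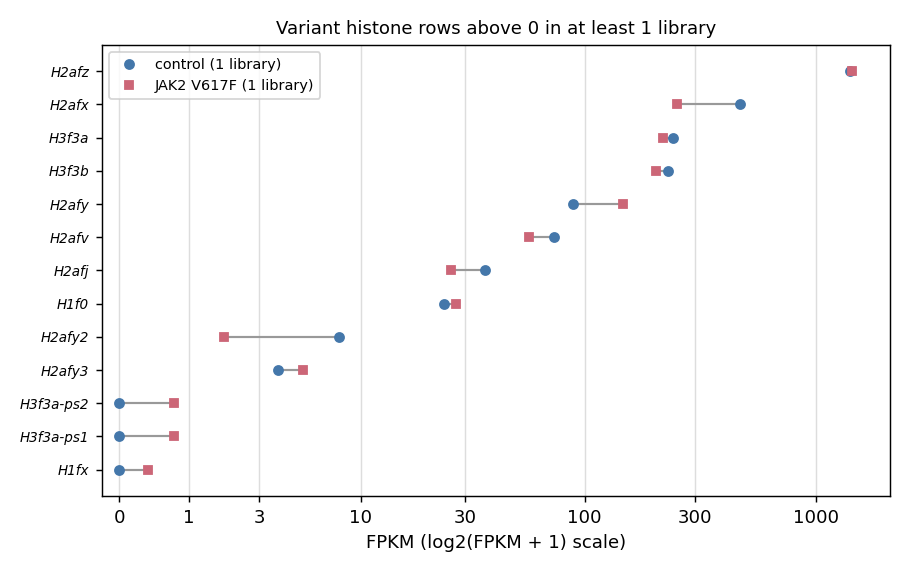
FPKM of the 13 variant histone rows above 0 in at least 1 library, on a log2(FPKM + 1) axis, in the control pool (blue circle) and mutant pool (red square); each point is 1 library. H2afz lies close to level at 1404 and 1430 FPKM, H2afx and H2afy2 lie lower and H2afy higher in the mutant pool.

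H3.3, the variant that replaces H3 outside S phase, is encoded by H3f3a and H3f3b. H3f3a was at 242 FPKM in the control pool and 219 in the mutant pool, a log2 ratio of −0.15 that turned to 0.03 at equal sums. H3f3b was at 231 and 203 FPKM. Together the pair held 83.7% of the summed FPKM of all H3 rows in the control pool and 84.1% in the mutant pool. For H2A, variants held 91.3% and 93.6% of the sum. Replication-dependent H3 and H2A transcripts had medians of 60.4% and 73.2% of stretches that also occur elsewhere, and H2afz had 69.6%. The part of such copies, or of mRNAs without a poly(A) tail, in these shares was not tested. H1f0, the linker histone of cells that have left the cell cycle, was at 24.05 and 27.1 FPKM and stayed above 0 on the log2 scale at equal sums. H1fx was listed at 0 in the control pool and at 0.334 FPKM in the mutant pool. The pseudogene rows H3f3a-ps1 and H3f3a-ps2 were at 0 in the control pool and at 0.724 and 0.729 FPKM in the mutant pool. The remaining 6 variant rows, H1fnt, H1foo, H2afb1, H2afb2-ps, H2afb3-ps and H3f3c, were at 0 in both libraries.

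The genes that make and end histone mRNAs were read from a fixed list. Of 23 measured genes, none was called higher and 1, Sympk, was called lower, with a median of −0.15 that was 0.03 at equal sums. Slbp, the gene of the stem-loop binding protein, was at 323 FPKM in the control pool and 191 in the mutant pool, a log2 ratio of −0.76. Sympk, the scaffold of the 3′ cleavage complex, had 176 and 54.3 FPKM. Npat, the activator of histone gene transcription, was at 20.1 and 30.2 FPKM, and Hinfp, the factor of H4 promoters, at 3.16 and 7.05 FPKM. Hinfp was called higher at equal sums. Zfp473, a zinc finger protein of the histone 3′ end complex, was at 2.02 and 0.850 FPKM. Members of this list therefore lay on both sides of 0, with 8 above and 15 below. Neither this list nor the next had a larger share of calls than all measured rows, with 13.8% higher and 11.4% lower.

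Histone chaperones and exchange complexes had 28 measured genes, none called higher and 2 lower, with a median of −0.19, or −0.02 at equal sums. Of the 28, 9 were above 0 and 19 below, or 12 and 16 at equal sums. Ep400, the motor protein of an H2A.Z exchange complex, was at 388 FPKM in the control pool and 61.0 in the mutant pool, a log2 ratio of −2.65. Daxx, a chaperone of H3.3, was at 112 and 45.2 FPKM. Cenpa, the H3 variant of centromeres, whose symbol lies outside the chosen set, was at 180 and 97.0 FPKM. Asf1b, which hands H3 and H4 to the replication machinery, was at 101 and 58.2 FPKM.

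Genes of DNA replication and S phase, the phase in which replication-dependent histones are made, lay mostly below 0 as well. Of 42 measured, none was called higher and 4 were called lower, with a median of −0.24 and 36 of 42 below 0. At equal sums 25 of 42 were below 0 and the median was −0.07. The called genes were Cdk2 (40.1 and 19.5 FPKM), Mcm10 (117 and 53.8 FPKM), E2f8 (180 and 86.1 FPKM) and Gins3 (17.03 and 6.38 FPKM). At equal sums only 1 of these calls, that of Gins3, was kept. Mitosis genes had 15 of 16 below 0 and a median of −0.26, or 13 of 16 and −0.09 at equal sums, with Ccnb2 called lower at 206 and 91.4 FPKM, a call that was lost at equal sums. The next widest mitosis genes were Ttk (29.6 and 17.95 FPKM), Cdk1 (160 and 99.0 FPKM) and Bub1 (47.6 and 31.7 FPKM). For all rows at 40 FPKM or more, 62.9% were below 0, 6.28% were called higher and 8.11% lower. The counts of lower calls in both lists were close to that share.

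The labelled sort was checked against markers, beside 13.8% of all measured rows called higher and 11.4% lower. At equal sums these shares of all rows were 16.7% and 9.42%. Stromal markers summed to 1206 FPKM in the control pool and 974 in the mutant pool, with none of 10 called. Nes itself was at 4.84 and 3.00 FPKM. Ptprc, which encodes CD45, was at 5.38 and 8.79 FPKM, and Pecam1, which encodes CD31, at 17.1 and 19.0 FPKM. Erythroid markers, of cells that should be removed by Ter119, summed to 3541 and 1927 FPKM, with 3 of 14 measured called lower, none higher and a median of −0.63. The called genes were the globins Hbb-b1, Hbb-b2 and Hba-a1. The globin Hba-a2 ran the other way, at 28.6 and 52.8 FPKM, a log2 ratio of 0.86. At equal sums 2 erythroid markers were called lower and Hba-a2 was called higher, with a median of −0.46. Leukocyte markers summed to 570 and 738 FPKM, with 2 of 11 called higher, Cd52 and Tyrobp. Neutrophil markers summed to 2634 and 2640 FPKM, but 4 of 12 were called lower and 1 higher, with a median of 0.07. Lower were Chi3l3 (42.4 and 7.84 FPKM), Ngp (450 and 182 FPKM), Ltf (24.1 and 9.01 FPKM) and Camp (84.2 and 37.8 FPKM), and higher was Mmp8 (2.59 and 13.1 FPKM). At equal sums 3 of these lower calls were kept. B lineage markers summed to 196 and 185 FPKM, with 1 of 9 called lower, Vpreb1, at 7.84 and 3.17 FPKM, a call lost at equal sums. Of 6 measured endothelial markers, 1 was called higher, Emcn, at 0.196 and 5.15 FPKM. The erythroid, stromal and B lineage sums were lower in the mutant pool, as were those of the replication-dependent histones and of all rows (a ratio of 0.884). The leukocyte, neutrophil and endothelial sums were higher. The stromal median was −0.30, or −0.12 at equal sums, with none of 10 called in either case. Of the neutrophil markers, 6 were above 0 and 6 below, and 9 of 11 leukocyte markers were above 0. The part of any of these cells in the histone values was not tested.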

How the data were processed

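The authors deposited 1 FPKM value per gene and library, computed with Cufflinks. The submitters' processing notes list TopHat2 2.0.7, Bowtie2 2.0.6, cutadapt 1.2.1 and build GRCm38. For the annotation release, strand use, scaling and multi-read handling, nothing was given in the sources used here. Per the labels' protocols, a few nanograms of total RNA were amplified (Ovation RNA-Seq System v2) before sonication and TruSeq DNA library preparation. No molecular identifiers are mentioned.

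Rows naming several genes (401) were left out. Log2 ratios used a pseudocount of 1 FPKM, a minimum of 1 FPKM in at least 1 library and a 2-fold call, computed with Python 3.11.15 and pandas 2.3.3. At 1 kb, 1 fragment equalled 0.180 FPKM in the control pool and 0.155 in the mutant pool, from genes with 1 transcript and an offset of 170 nt, the sharpest of 31 offsets. Of 270 and 533 low genes, 79.3% and 81.8% lay within 0.2 of a whole fragment. The step search was tested on simulated data.

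The members and lists were chosen with earlier results of these data known. Genes were named by rule: all variants, the 4 highest replication-dependent genes of each class, every called histone gene, and the 4 widest log2 ratios of each list, which are given only in part for the marker lists. Further members of a divergent pair, a cluster or an interval were named after their values were seen, as were Npat, Ptprc, Pecam1, Hba-a2 and Camp. The list of other RNAs without a poly(A) tail matched no row. Srcap had several rows and was not used. Alternatives were the pseudocount, the filter, 3 scalings, shared rows and leaving out genes at 0. Scaled sums, scaled list medians and sums without the highest genes were added after seeing the data.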

Additional observations from a re-analysis of the deposited data

Results flagged for a closer look

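A signal appeared in a row that the rule left out because it names Hist3h2a together with its neighbour Trim17 on chromosome 11. Its values were 6.68 FPKM in the control pool and 8.48 FPKM in the pool from JAK2-V617F mice, a log2 ratio of 0.30. The value cannot be divided between the histone gene and Trim17. The other rows of the Hist3 cluster, Hist3h2ba and Hist3h2bb-ps, were lower in the latter pool, and the difference from them was not tested. A second row of this kind, naming Hist2h2aa1 and Hist2h3c1, had 0.744 FPKM in the control pool and a listed value of 0 in the other.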

How the results depend on the processing

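With 1 library per group, no replicate could be left out. No paired analysis was possible because each group has 1 library and no test was made. The median log2 ratio of replication-dependent genes was negative under all alternatives run. It moved from −0.50 to −0.37 with a pseudocount of 5 FPKM, to −0.23 with no filter, to −0.32 at equal library sums and to −0.36 at equal sums without globin, ribosomal protein, small RNA and histone rows. The median of variant genes, −0.16, turned to 0.014 at equal sums, and was −0.030 at equal sums without the abundant classes and 0 with no filter. With a pseudocount of 5 FPKM, 1 replication-dependent gene was called higher and 2 lower, and no variant was called lower. The shares of all rows called with that pseudocount were not computed. Whether the loss of calls is particular to histone genes is therefore not known. Of the 19 called histone genes, 16 lost their call with that pseudocount, and Hist1h2bb, Hist3h2ba and Hist2h3b kept theirs. Hist1h2ab and Hist1h4f lost theirs under both equal-sum scalings. No gene called at 2-fold changed sign. A pseudocount of 0.1 FPKM, a minimum of 5 FPKM, equal medians, counting shared rows and leaving out genes at 0 kept the medians and counts close to those reported. Depth limits genes below 10 FPKM, and reads shared among copies were not resolved.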
